A study of Rattus norvegicus with 3 samples.

Results

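The genes that bind, carry and sense zinc, iron and copper were followed in rat osteoblast-like cells treated with polyphosphate. They were picked by a rule on gene names, which was chosen with earlier results of these data known. The rule took the metallothioneins, the metal sensor Mtf1, every member of the zinc transporter families Slc30a and Slc39a, 8 iron genes and 4 copper genes. It found 53 of the 30367 gene probes on the array, standing for 42 of 26140 genes. Among them were 4 metallothioneins, 10 Slc30a genes and 15 Slc39a genes.

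The cells were ROS17/2.8, a clonal line from a rat osteosarcoma that keeps many features of osteoblasts. Polyphosphate, Poly(P) in the labels, is a chain of phosphate residues joined by high-energy bonds. Confluent cells of all 3 groups were kept in a mineralization medium containing L-ascorbate phosphate and β-glycerophosphate. One group received 1 mg/ml Poly(P) for 24 h (high dose), another received 0.01 mg/ml for 24 h (low dose), and the control received none, with no time given in its label. Each group was measured on 1 one-colour Agilent array, so a difference between arrays cannot be told apart from a difference between cultures, and no p-value can be given. A scaled signal below is the processed spot intensity divided by the 75th percentile of its array and multiplied by that of the control array (926). The arrays were alike in brightness, with 75th percentiles of 926 to 964 and 55.9% to 57.2% of probes well above background. All 8 osteoblast markers examined (Runx2, Sp7, Alpl, Bglap, Ibsp, Spp1, Col1a1 and Pth1r) were above background on every array. Of markers of other cells, 3 of 5 macrophage, 1 of 4 adipocyte, 1 of 4 chondrocyte, 2 of 4 endothelial and 1 of 4 erythroid genes were above background on all arrays, while Ptprc, Adgre1, Adipoq, Plin1, Acan, Col2a1, Hbb and Alas2 were not above it on any.

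Metallothioneins are small cysteine-rich proteins that bind zinc and copper, and their genes are among the best known targets of MTF-1, a zinc-sensing transcription factor that binds metal response elements in promoters. Most Slc30a (ZnT) transporters move zinc out of the cytosol, to the outside or into organelles, and most Slc39a (ZIP) transporters move it into the cytosol. Below, the families are called zinc exporters and zinc importers by name, whatever a single member carries. Cell iron is held in balance by the iron regulatory proteins, which control the translation or stability of the mRNAs for ferritin and the transferrin receptor, so that much of the regulation does not pass through transcription. In bone cells, zinc is needed by alkaline phosphatase, and copper by the collagen cross-linking enzyme lysyl oxidase.

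The metal response element was searched in the 250 bases before the annotated start of each gene, as TGCACNC or TGCGCNC on either strand, because it is the site through which MTF-1 acts on metallothionein genes. Promoter sequences were taken from RefSeq (build GRCr8), where 34 of the 42 genes had an entry. At least 1 match was present in 16 of these 34 genes (47.1%) and in 20.6% of all 33469 promoters, and at least 4 matches were present in 3 of the 34 and in 0.266% of all promoters. Those 3 genes were Mt1a (listed as Mt1 in RefSeq) with 6 matches, Mt2A with 4, and Slc39a7 with 4, of which 3 do not overlap. A match is a run of letters and was not tested for binding. The 3 promoters are shown 5′ to 3′ along the gene with every match in capitals, since 2 of the genes discussed most below, Mt1a and Slc39a7, are among them. They lie on GRCr8 at chr19:10832976-10833225 (minus strand), chr19:10838709-10838958 (minus strand) and chr20:4824809-4825058 (plus strand).
Mt1a promoter: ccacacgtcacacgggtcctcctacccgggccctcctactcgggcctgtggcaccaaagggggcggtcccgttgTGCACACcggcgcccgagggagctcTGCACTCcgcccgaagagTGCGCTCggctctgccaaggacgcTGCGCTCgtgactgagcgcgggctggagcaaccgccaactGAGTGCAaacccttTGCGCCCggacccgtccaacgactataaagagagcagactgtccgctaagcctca
Mt2A promoter: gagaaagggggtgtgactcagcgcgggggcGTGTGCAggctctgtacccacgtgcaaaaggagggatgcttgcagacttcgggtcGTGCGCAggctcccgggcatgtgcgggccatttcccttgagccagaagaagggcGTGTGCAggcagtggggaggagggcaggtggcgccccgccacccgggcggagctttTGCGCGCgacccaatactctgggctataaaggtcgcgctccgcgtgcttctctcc
Slc39a7 promoter: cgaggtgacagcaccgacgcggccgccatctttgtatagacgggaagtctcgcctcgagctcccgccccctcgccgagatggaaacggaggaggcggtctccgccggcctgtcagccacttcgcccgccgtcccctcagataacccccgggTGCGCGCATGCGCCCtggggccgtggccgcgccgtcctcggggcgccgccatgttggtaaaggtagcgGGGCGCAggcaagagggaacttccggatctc

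Mtf1 itself had 2 matches in its promoter window, as did the zinc exporters Slc30a1, Slc30a2 and Slc30a4 and the importer Slc39a13, while Slc30a6, Slc30a9 and the iron genes Aco1, Ireb2, Slc11a2, Slc40a1 and Tfr2 had none. Tfrc and Mt3 had 3 each, of which 2 do not overlap in Tfrc. Slc30a5 and Slc39a11 had 2 each, which overlap. The probes behind 3 of the genes that stood furthest from the control, or that disagree with another probe, are given next. In the Mt2A probe the capitals mark the 7 cysteine codons (TGC) among the 20 codons of its reading frame, the repeated pattern that gives metallothioneins their metal-binding character. The Mtf1 and Slc39a7 probes are in lower case throughout.
Mt2A probe: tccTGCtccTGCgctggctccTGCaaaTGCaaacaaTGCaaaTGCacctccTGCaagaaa
Mtf1 probe: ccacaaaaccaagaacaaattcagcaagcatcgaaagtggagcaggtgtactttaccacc
Slc39a7 probe: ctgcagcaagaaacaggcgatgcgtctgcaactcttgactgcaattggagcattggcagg

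Expression was detected for most of the genes. On all 3 arrays 31 of the 42 were above background, 8 were not above it on any array, and 3 were above it on some arrays only. Those not detected comprised the metallothioneins Mt3 and Mt4, the liver-type transferrin receptor Tfr2 and the iron exporter ferroportin (Slc40a1). The others were the Slc30a family members Slc30a2, Slc30a3, Slc30a8 and Slc30a10. Every copper gene and 12 of 15 zinc importers were above background on all arrays. No spot of these genes was saturated.

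A gene was counted as higher or lower where its log2 ratio between arrays reached 0.32 in size, called the size limit below. With the high dose, 1 of the 31 measured genes was higher than in the control by that limit (Mt1a) and 1 was lower (Mtf1), or 3.23% each. Over all 14503 genes measured, 4.82% were higher and 5.08% lower by the same limit, so the counts were no larger than the background. With the low dose 0 of 32 measured genes were higher and 1 was lower (Slc39a12), against 2.51% and 3.25% of 14629 genes. The median log2 ratio to the control was -0.05 over the metal genes and -0.0087 over all genes with the high dose, and -0.0039 and 0.00095 with the low dose. The metal genes spread less than all genes (SD between genes 0.16 against 0.20 with the high dose, and 0.13 against 0.16 with the low dose). The ± values below are spot errors, that is, standard errors of a log2 ratio that cover the measurement on the array only. They come from the spread between repeat spots, pooled over probes of similar level, so that probes with 1 spot have one too. By that measure 24 of 31 genes lay within 2 spot errors of the control with the high dose and 27 of 32 with the low dose. At each dose the median spot error was 0.077 over the metal genes and 0.086 over all genes. Whether this bears on their smaller SD between genes was not tested.

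The fixed centring of each array sets these signs for small ratios. Centring on 8 spike-in probes in place of the 75th percentile raised every ratio to the control by 0.15 with the high dose and 0.16 with the low dose, and brought the median of all genes to 0.15 and 0.16. Of 18 metal genes below 0 with the high dose, 13 then lay above it, and Mtf1, Slc39a7, Slc31a1, Slc11a2 and Ireb2 stayed below. The share of higher genes among all past the size limit was 48.7% by the 75th percentile and 89.6% by the spike-ins for the high dose, and 43.5% and 87.4% for the low one. Directions are therefore given relative to the 75th percentile, and the spike-in centring turned 13 metal genes from below to above 0 at each dose. With the high dose these were Aco1, Fth1, Mt2A, Slc30a5, Slc30a6, Slc39a1, Slc39a11, Slc39a13, Slc39a3, Slc39a4, Slc39a6, Slc39a8 and Tfrc. With the low dose they were Fth1, Ftl, Ireb2, Slc11a2, Slc30a4, Slc30a5, Slc30a7, Slc31a2, Slc39a10, Slc39a14, Slc39a6, Slc39a8 and Tfrc.

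**Figure D1:**
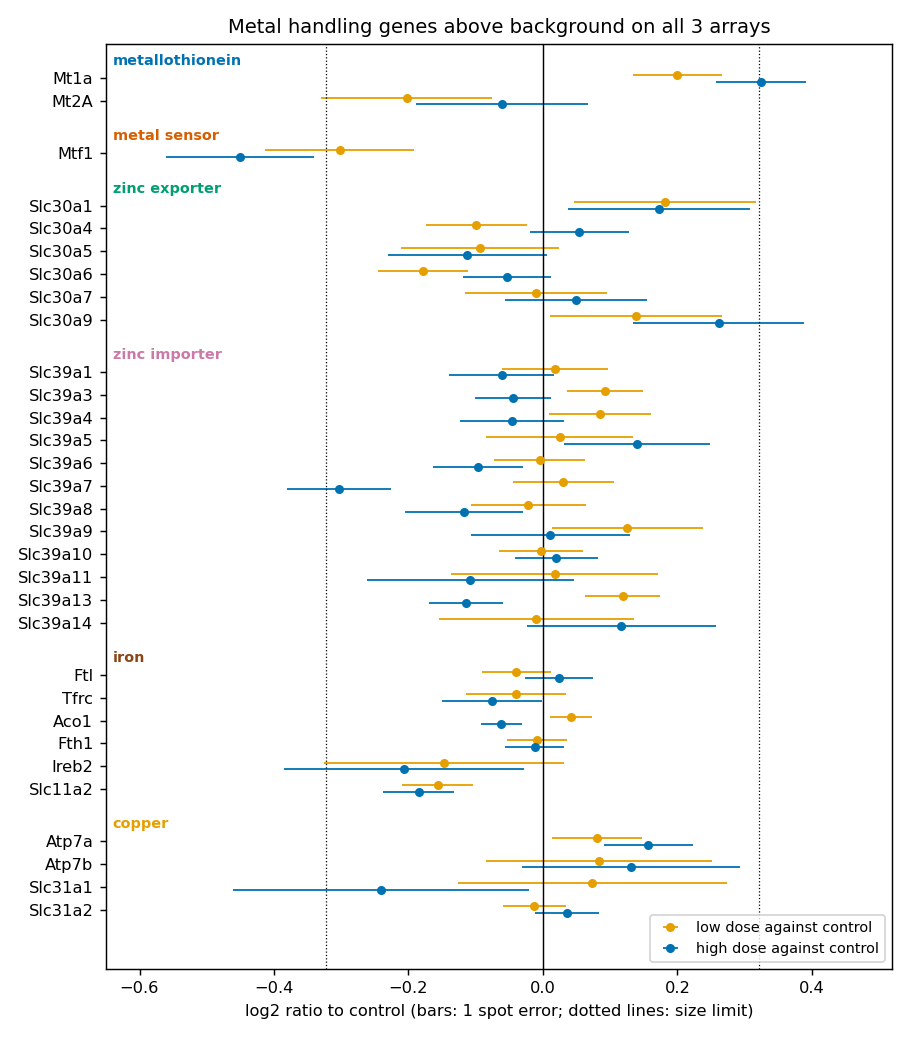
Log2 ratio to the control array (x axis) of the 31 genes above background on all 3 arrays, with the low dose (orange) and the high dose (blue), grouped by role. Points are gene values, bars are 1 spot error, and dotted lines mark the size limit: with the high dose Mt1a lies on the upper line at 0.32 and Mtf1 beyond the lower one at -0.45, while the ferritin genes Fth1 and Ftl lie close to 0.

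Mt1a, which encodes the broadly expressed metallothionein 1, was the highest of the metal genes against the control at both doses. Its probe (rn4 chr19:11261631-11261690) had 2 spots, with scaled signals of 941 and 918 in the control, 1106 and 1031 with the low dose, and 1254 and 1080 with the high dose. Both spots of each treated array were above both control spots, whereas those of the low and high dose arrays overlapped. The log2 ratio to the control was 0.32 ± 0.07 with the high dose and 0.20 ± 0.07 with the low dose. The doses differed by 0.12 ± 0.07, less than 2 spot errors. The value with the high dose (0.325) lies almost on the size limit (0.322). Over 10 settings of the processing it ranged from 0.32 to 0.48, and the low dose value from 0.19 to 0.36, with no change of sign. Not all of these could move it, because Mt1a has 1 probe with 2 spots, all well above background and none an outlier. The filters on dim probes, outlier spots kept, medians over spots and the brightest probe return the same value by construction. With normexp background correction the high dose value was 0.315, short of the size limit. In RNA from a whole culture, more cells with the transcript and more RNA per cell cannot be told apart.

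Mt2A, the other broadly expressed metallothionein, lay within 2 spot errors of the control at both doses. The coding probe printed above (rn4 chr19:11268168-11268227) had 1 spot, with scaled signals of 308 in the control, 267 with the low dose and 295 with the high dose. The ratios were -0.06 ± 0.13 with the high dose and -0.20 ± 0.13 with the low dose, both within 2 spot errors of 0. The high dose value was 0.09 with the spike-in centring. A further Mt2A probe (rn4 chr19:11267834-11267893) was not well above background in any of its 10 spots on any array, with scaled signals of 4.36 to 14.7 in the control, 5.29 to 20.1 with the low dose and 4.95 to 16.8 with the high dose. The 2 probes of Mt2A thus disagree on whether the gene was detected. Metallothionein coding sequences resemble one another, and whether the coding probe also takes up RNA of other family members was not tested.

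Mt3, the brain metallothionein, and Mt4, that of stratified epithelia, were read by 2 spots each and stayed between 4.14 and 8.68 on all arrays, which is not well above background. The 5 metallothionein probes lie within 38.6 kb of chromosome 19 (rn4 chr19:11261631-11300191), the cluster in which this family sits. Of the 2 genes measured in it, Mt1a differed from the control by more than 2 spot errors and Mt2A did not.

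Mtf1, the sensor that activates metallothionein genes, was the lowest of the metal genes with the high dose, opposite in sign to Mt1a. Its probe spans 3269 bases of rn4 chromosome 5 (144172266 to 144175534), so it bridges an intron, and it was printed in 10 spots. The lowest, median and highest scaled signals were 24.1, 42.2 and 52.2 in the control, 25.1, 31.3 and 43.5 with the low dose, and 18.1, 32.3 and 38.8 with the high dose. The 3 ranges overlapped throughout. The log2 ratio was -0.45 ± 0.11 with the high dose and -0.30 ± 0.11 with the low dose, and the spread of its own 10 spots gave larger errors of 0.17 and 0.13.

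This was a dim probe, and with the high dose the size of its difference depended on the dimmest spots. On the control and low dose arrays 9 of the 10 spots were well above background, and 7 with the high dose. With only the spots well above background on both arrays, the mean was -0.25 with the high dose (7 spots, 6 of them below 0) and -0.30 with the low dose (8 spots, 7 below 0). Both means are short of the size limit. The doses then differed by -0.02 over 6 spots, compared with -0.15 ± 0.11 over all. However, this filter chooses spots by their own signal. With the high dose it left out the spots at 18.1, 22.7 and 19.8, which are the dimmest on that array. Leaving them out draws the high dose means up by construction, so these means do not settle the size of the difference. Mtf1 remained below the control at both doses under the 9 settings that could measure it, from -0.45 to -0.18 with the high dose and from -0.43 to -0.14 with the low dose. Outlier spots kept, no filter on dim probes and the brightest probe could not change its values.

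**Figure D2:**
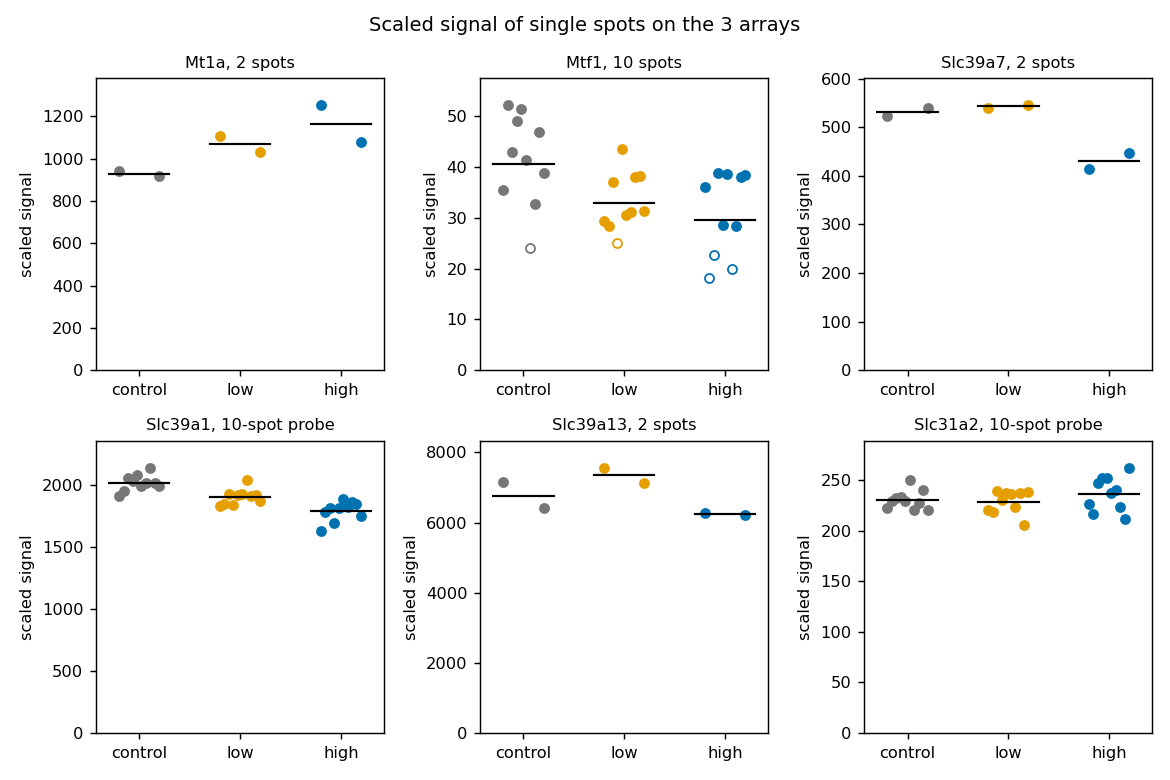
Scaled signal (y axis, from 0) of every spot of 6 probes on the control, low dose and high dose arrays; filled points are well above background, open points are not, and lines are the means of log2 values without outlier spots. Both treated arrays lie above the control for Mt1a, the 10 spots of Mtf1 overlap between arrays, Slc39a7 is lower with the high dose alone, and Slc31a2 shows no shift beyond its spread.

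Among the zinc exporters, 6 of 10 genes were measured and none passed the size limit. Their median ratio was 0.05 with the high dose and -0.05 with the low dose, the latter 0.11 with the spike-in centring. Slc30a1, the plasma membrane exporter and a known MTF-1 target, had scaled signals of 107.9 and 108.0 in the control, 122.3 and 122.4 with the low dose, and 130.1 and 113.8 with the high dose. Both treated arrays were above the control in both spots. The ratios of 0.17 ± 0.14 and 0.18 ± 0.14 (high and low dose) were nevertheless within 2 spot errors, because probes this dim vary more between spots. Slc30a9, a mitochondrial zinc transporter, was the highest exporter with the high dose, with a single spot of 261 in the control, 287 with the low dose and 312 with the high dose. Its ratio of 0.26 ± 0.13 with the high dose was just over 2 spot errors, and that of 0.14 ± 0.13 with the low dose was not.

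Exporters of the secretory pathway and vesicles had smaller or negative ratios. Slc30a6, which loads zinc into the secretory pathway together with Slc30a5, had scaled signals of 961 and 1018 in the control, 875 and 873 with the low dose and 987 and 920 with the high dose. Both low dose spots were under both control spots, with a ratio of -0.18 ± 0.07, and the high dose spots overlapped the control (-0.05 ± 0.07). Slc30a5 was the lowest exporter with the high dose at -0.11 ± 0.12, a value that was 0.04 with the spike-in centring. Slc30a4, an exporter of endosomes and vesicles, was at 0.05 ± 0.07 with the high dose and -0.10 ± 0.07 with the low dose.

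The zinc importers had a median ratio of -0.05 over 12 genes with the high dose and 0.02 over 13 genes with the low dose, and the high dose median was 0.10 with the spike-in centring. Slc39a7 (ZIP7) releases zinc from the endoplasmic reticulum and Golgi into the cytosol. Its probe spans 541 bases of rn4 chromosome 20 (4963365 to 4963905), and its 2 spots had scaled signals of 524 and 540 in the control, 540 and 546 with the low dose and 415 and 448 with the high dose. The high dose spots were below all others, and the low dose spots were at or just above the control. The ratio was -0.30 ± 0.08 with the high dose, short of the size limit, and 0.03 ± 0.08 with the low dose. Over 10 settings the high dose value ranged from -0.31 to -0.15. As for Mt1a, the filters on dim probes, outlier spots kept, medians over spots and the brightest probe could not change it.

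Slc39a13 (ZIP13), an importer of intracellular vesicles that is mutated in a connective tissue and skeletal disorder, had opposite signs with the 2 doses. Its scaled signals were 7147 and 6409 in the control, 7565 and 7138 with the low dose, and 6275 and 6229 with the high dose. The low dose spots overlapped the brighter control spot, and both high dose spots were under all others. The ratios were -0.11 ± 0.06 with the high dose and 0.12 ± 0.06 with the low dose, each just over 2 spot errors and opposite in sign, and the former turned positive with the spike-in centring. The high dose lay -0.23 ± 0.06 from the low dose.

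Slc39a1 (ZIP1), a plasma membrane zinc importer studied in osteoblast differentiation, was read by 2 probes with opposite signs against the control. A probe with 10 spots had lowest, median and highest scaled signals of 1909, 2013 and 2140 in the control, 1834, 1914 and 2039 with the low dose and 1628, 1815 and 1890 with the high dose. All 10 spots were lower with the high dose than in the control, with ranges that did not overlap, and 9 of 10 were lower with the low dose. Its ratios were -0.17 ± 0.03 and -0.08 ± 0.03, which the spike-in centring moved to -0.02 and 0.07. The other probe, about 81 in scaled signal in the control, gave 0.05 ± 0.15 and 0.12 ± 0.15, so the mean for the gene was -0.06 ± 0.08 and 0.02 ± 0.08. With 10 spots a difference this small exceeds the spot error, and it is well under the size limit.

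The highest importer was Slc39a5 with the high dose (0.14 ± 0.11) and Slc39a9 with the low dose (0.13 ± 0.11), both within 2 spot errors. Slc39a14 (ZIP14), which carries zinc and non-transferrin-bound iron, had probes at 0.30 ± 0.21 and -0.07 ± 0.19 with the high dose. The remaining importers measured on all arrays lay between -0.12 and 0.02 with the high dose. Slc39a8, the relative of Slc39a14, was at -0.12 ± 0.09, and Slc39a10 was at 0.02 ± 0.06.

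The 3 importers that were above background on some arrays only were all dim. Slc39a12 had 1 spot, at 31.0 in the control, 23.3 with the low dose and 16.2 with the high dose, the last not well above background. The observed high dose ratio was -0.93 to the control and -0.52 to the low dose. Spot errors come from probes with every spot well above background and can be too small for dimmer spots. None is therefore given in this paragraph for ratios that use a spot not well above it. The low dose ratio to the control was -0.41 ± 0.36, within 2 spot errors. Slc39a2 (ZIP2) had 1 spot at 12.9, 27.6 and 10.96 on the control, low and high dose arrays, the first and last not well above background. The observed low dose ratio to the control was 1.09, from a control spot at background. The low dose signal was 2.48-fold that with the high dose, given a stand-in for the probe's own high dose signal. The stand-in was the lowest signal well above background on that array, which was larger. The fold takes the single low dose spot as exact, so it is not a firm minimum. Slc39a4l was above background with the low dose in 1 of its 2 spots (31.0 and 4.95), and the other arrays were between 5.27 and 8.19.

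Iron uptake, storage and sensing showed small differences. The median ratio over the 6 measured iron genes was -0.07 with the high dose and -0.04 with the low dose, and both medians were above 0 with the spike-in centring (0.09 and 0.12). Each comparison had 5 of 6 below 0, where 52.1% (high dose) and 49.6% (low dose) of all genes were, and both use the same control array. Slc11a2 (DMT1), which carries ferrous iron across the endosomal and plasma membranes, was the one iron gene beyond 2 spot errors in both comparisons. Its brightest probe had scaled signals of 1499 and 1610 in the control, 1424 and 1435 with the low dose and 1307 and 1280 with the high dose. Every spot was lower with the low dose than in the control, and lower again with the high dose.

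The 3 Slc11a2 probes gave -0.26 ± 0.06, -0.19 ± 0.12 and -0.10 ± 0.08 with the high dose, all below 0, with a mean of -0.18 ± 0.05. For the low dose they gave -0.12 ± 0.06, -0.31 ± 0.12 and -0.03 ± 0.08, with a mean of -0.16 ± 0.05. The mean kept its sign with the high dose in all 10 settings (-0.26 to -0.03), while with the low dose the spike-in centring brought it to 0.0024. The filters on dim probes, outlier spots kept and medians over spots could not change it. Its probes had 1 or 2 spots, all well above background and none an outlier.

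Tfrc, the transferrin receptor, had a bright probe with scaled signals of 2173 and 2318 in the control, 2048 and 2074 with the low dose, and 2069 and 2048 with the high dose. Both control spots were above all treated spots, and the treated arrays overlapped. This probe gave -0.12 ± 0.06 at each dose, and a dimmer probe that bridges an intron gave -0.03 ± 0.14 and 0.04 ± 0.14. The mean for the gene was -0.08 ± 0.07 with the high dose and -0.04 ± 0.07 with the low dose, within 2 spot errors and above 0 with the spike-in centring.

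The ferritin genes were read by very bright probes and lay close to the control. Fth1 encodes the heavy subunit, which oxidises iron for storage, and its 2-spot probe had scaled signals of 195435 and 195276 in the control, 191003 and 199213 with the low dose, and 192875 and 198534 with the high dose. The ratios for the gene were -0.01 ± 0.04 and -0.0088 ± 0.04 (high and low dose). Ftl, the light subunit (Ftl1 in RefSeq), had 213496 and 235304 in the control, 209298 and 227257 with the low dose and 218106 and 238075 with the high dose, with ratios of 0.02 ± 0.05 and -0.04 ± 0.05. The arrays overlapped for both genes. Ferritin protein is set largely by translation, which an mRNA array does not read.

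The mRNAs of both iron regulatory proteins were measured, that of IRP2 with a dim probe. Aco1 encodes IRP1, a cytosolic aconitase that turns into an RNA-binding regulator when iron is low, and its probe had 10 spots, of which 8, 9 and 10 were used on the control, low and high dose arrays after outlier spots were left out. Lowest, median and highest scaled signals were 1125, 1179 and 1219 in the control, 1050, 1228 and 1269 with the low dose, and 1033, 1120 and 1233 with the high dose. The ranges overlapped, with ratios of -0.06 ± 0.03 and 0.04 ± 0.03. Ireb2, encoding IRP2, had spots of 98.7 and 69.9, 87.8 and 64.2, and 63.6 and 81.5 on the control, low and high dose arrays. Its ratios of -0.21 ± 0.18 and -0.15 ± 0.18 were within 2 spot errors, although -0.21 was the lowest value among the iron genes with the high dose. Slc40a1, the only known cellular iron exporter, was not above background with either of its 2 probes (4.12 to 8.42 over the arrays), nor was Tfr2 (4.04 to 6.98).

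The 4 copper genes had a median ratio of 0.08 at each dose, and none passed the size limit. Atp7a, the ATPase that pumps copper into the secretory pathway and out of the cell, was the highest with the high dose. Its scaled signals were 843 and 888 in the control, 944 and 887 with the low dose and 1001 and 929 with the high dose. Only the high dose spots were both above the control spots, with a ratio of 0.16 ± 0.07, compared with 0.08 ± 0.07 with the low dose.

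Slc31a1 (CTR1), the main copper importer, was the lowest copper gene with the high dose. Its spots of 61.7 and 56.0, 56.9 and 67.3, and 55.3 and 44.8 on the control, low and high dose arrays gave ratios of -0.24 ± 0.22 and 0.07 ± 0.20. The high dose spots were below the control spots, but the difference was within 2 spot errors. Slc31a2, a relative that acts in endosomes, had a probe with 10 spots and a median of 229 in the control, 234 with the low dose and 239 with the high dose, with overlapping ranges. Its ratios were 0.04 ± 0.05 and -0.01 ± 0.05. A further Slc31a2 probe was not well above background on any array. Atp7b, the copper ATPase best known from liver, gave 0.13 ± 0.16 and 0.08 ± 0.17 as a mean of 2 probes that disagreed.

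Different probes of a gene gave a check on single values. Of the 7 genes with more than 1 measured probe, 5 had probes on opposite sides of 0 in the high dose comparison and 4 in the low dose comparison. The difference between probes exceeded 2 spot errors only for Atp7b with the high dose, where a probe at 42.5 in scaled signal in the control gave 0.46 ± 0.22 and another at 56.4 gave -0.20 ± 0.24, a difference of 0.66 ± 0.32. All probes of Slc11a2 had the same sign against the control at both doses with the fixed centring of each array. With the spike-in centring their signs split at both doses. In the order given above for this gene, they were then -0.11, -0.04 and 0.05 with the high dose. With the low dose they were 0.04, -0.16 and 0.13. Mt1a, Mtf1 and Slc39a7 each had 1 measured probe and so had no such check.

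**Figure D3:**
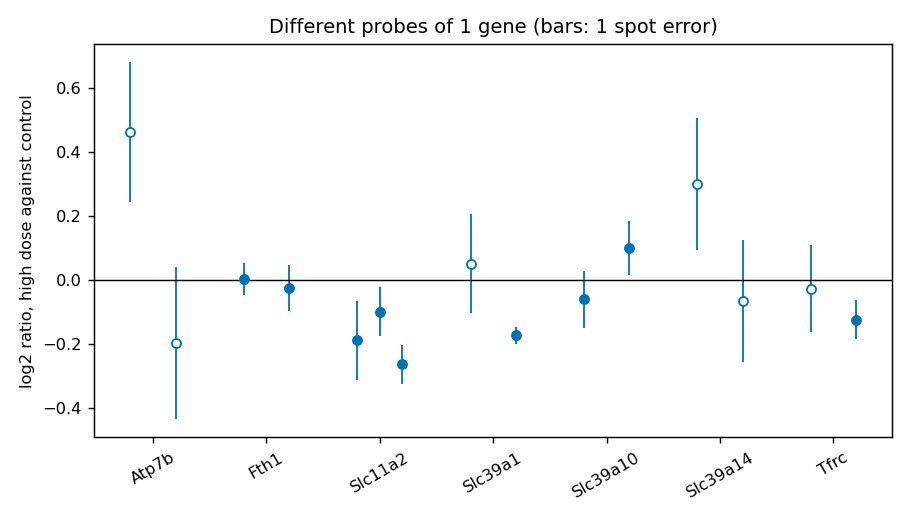
Log2 ratio of the high dose to the control array (y axis) for each measured probe of the 7 genes with several probes; bars are 1 spot error, filled points are probes with a scaled signal of 150 or more in the control and open points dimmer ones. The 3 probes of Slc11a2 all lie below 0, those of Fth1 lie near 0, and those of Atp7b are 0.66 apart.

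The 2 doses were then compared with each other. Of 31 measured genes 0 were higher with the high dose by the size limit and 1 was lower (Slc39a7), against 4.59% and 3.82% of 14488 genes. The median over the metal genes was -0.02, close to -0.0086 over all genes, and the spike-in centring moved it by -0.0044. Slc39a7 lay at -0.33 ± 0.08, and its values under 10 settings ran from -0.35 to -0.29. The settings that could not change its ratio to the control could not change this one either. Slc31a1 was just short of the size limit at -0.31 ± 0.22, within 2 spot errors.

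The zinc importers had a median of -0.11 between the doses over 12 genes, with 9 of 12 lower with the high dose, where 53.0% of all genes were lower. The spike-in centring moves every ratio between the doses by -0.0044, so it could not bring any of these 9 above 0. Beyond 2 spot errors below 0 were Slc39a7, Slc39a13 (-0.23 ± 0.06) and Slc39a3 (-0.14 ± 0.06), together with the iron gene Aco1 (-0.10 ± 0.03). That is 4 of 31 genes, where 10.6% of all genes lay as far below 0. Slc39a3 (ZIP3), a plasma membrane importer, had scaled signals of 3881 and 3748 with the low dose and 3505 and 3433 with the high dose, which did not overlap. The exporters had a median of 0.09, and Slc30a4 was the single metal gene beyond 2 spot errors above 0 (0.15 ± 0.07), where 9.62% of all genes lay as far above. The metallothioneins Mt1a (0.12 ± 0.07) and Mt2A (0.14 ± 0.13) were within 2 spot errors of 0. So were the other ends of each group, namely Slc30a5 (-0.02 ± 0.12) as the lowest exporter, Slc39a14 (0.13 ± 0.14) as the highest importer, Ftl (0.06 ± 0.05) as the highest iron gene and Atp7a (0.08 ± 0.07) as the highest copper gene.

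Counted by spot error against the control, 3 of 31 metal genes (9.68%) lay more than 2 errors above 0 with the high dose and 4 (12.9%) below it, against 10.7% and 12.8% of all genes. Those above were Mt1a, Slc30a9 and Atp7a, and those below were Mtf1, Slc39a7, Slc39a13 and Slc11a2. At the low dose 2 of 32 were above (Mt1a and Slc39a13) and 3 below (Mtf1, Slc11a2 and Slc30a6), against 4.27% and 4.56% of all genes. Mt1a, Mtf1 and Slc11a2 were on the same side of the control in both comparisons, which share the control array.

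**Figure D4:**
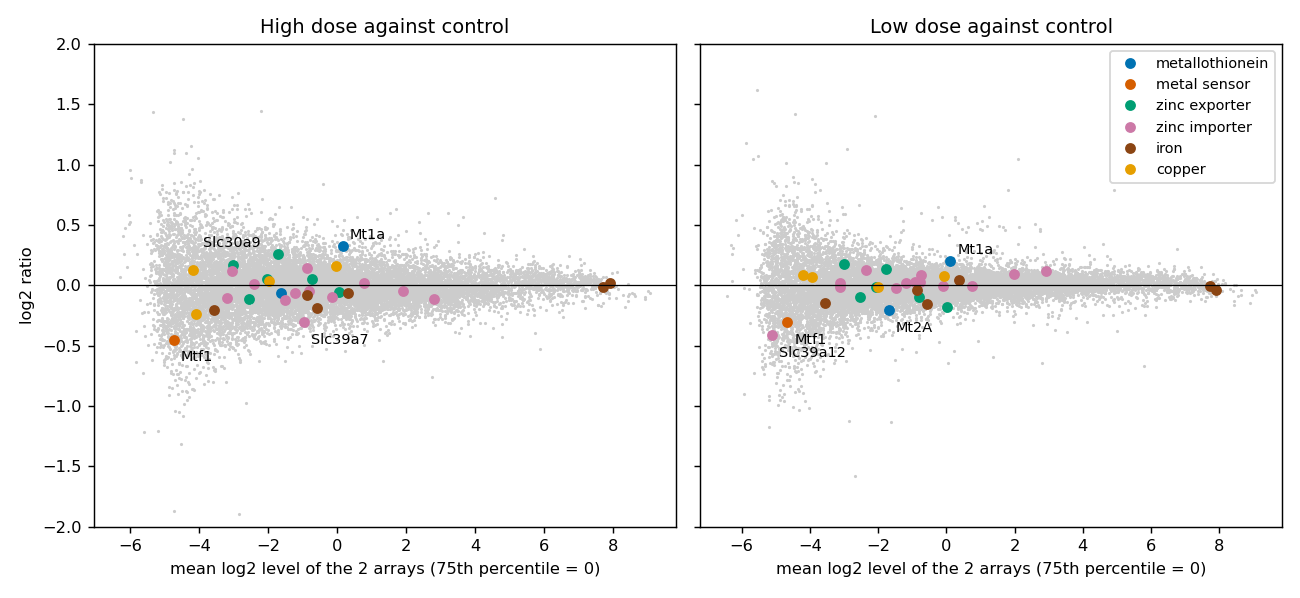
Log2 ratio to the control (y axis) against mean log2 level (x axis, with the 75th percentile at 0) for all measured genes (grey) and the metal genes (coloured by role), with the high dose (left) and low dose (right). The metal genes lie within the grey cloud at their level. Mt1a lies in its upper part with the high dose, where 4.82% of all genes were higher by the size limit. Mtf1 and Slc39a12 are among dim genes where the cloud is widest, and the ferritin genes are among the brightest.

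Other genes of zinc, iron and copper metabolism outside the rule were read from a list of 39 symbols, of which 37 had a probe and 27 were above background on all arrays. At the high dose 2 of 28 measured genes were higher by the size limit and 1 lower, with a median of -0.0058, where 4.82% and 5.08% of all genes were. The 3 are named because the count is small. Hmox1, the heme oxygenase that frees iron from heme, had a scaled signal of 1051 in the control, 1177 with the low dose and 1328 with the high dose, a ratio of 0.34 ± 0.03 with the high dose. Cybrd1, a ferric reductase that supplies ferrous iron to Slc11a2, had 1079, 1037 and 791 in the same order. Its ratio was -0.45 ± 0.07 with the high dose, -0.06 ± 0.07 with the low dose and -0.39 ± 0.07 between the doses. Hfe, the hemochromatosis gene, had a ratio of 0.83 ± 0.36 with the high dose from 1 dim probe and was not above background with the low dose.

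At the low dose 1 of 27 genes of that list was lower by the size limit, where 3.25% of all genes were, namely the ferric and cupric reductase Steap4, at -0.43 ± 0.35. All 8 measured copper genes of the list, among them the chaperones Atox1 and Ccs, Sod1 and lysyl oxidase (Lox), lay between -0.11 and 0.14 with the high dose. Alpl, the zinc-dependent alkaline phosphatase of mineralizing cells, was at -0.13 ± 0.06 with the high dose and 0.09 ± 0.06 with the low dose.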

How the data were processed

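Total RNA of ROS17/2.8 cells was labelled with Cy3 and hybridised to 3 one-colour Agilent rat arrays, 1 per group, grouped by the treatment labels. The authors deposited spot intensity values as scanner output, extracted per the file headers with Agilent Feature Extraction 10.7.3.1 for design 028279 (probe coordinates on rn4). The processed signal is background-subtracted per the file headers and not normalized between arrays. The authors also deposited a table whose values are a ratio, each being the processed signal over 1 constant per array (823 control, 849 low dose, 823 high dose, to within 0.000123%), uncentred between genes, with column medians of 0.0737, 0.0731 and 0.0734. The sources used here do not state what the constants stand for.

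Each processed signal was put on the log2 scale and centred on the 75th percentile of the 58717 gene spots of its array. Outlier spots were left out, repeat spots averaged, and a probe counted as measured where at least 50% of its spots were well above background on both arrays. A gene is the mean of its measured probes. The metal genes had 134 spots per array (12 probes with 1 spot, 36 with 2 and 5 with 10). Spot errors pool the SD between repeat spots in 20 bins of level, from 0.256 in the dimmest to 0.0508 in the brightest. The pool holds only probes with every spot well above background, so it does not cover the spread of spots at background. Names are those of the files, and 48 of 53 probes matched RefSeq accessions. Named genes were every metallothionein, the core iron and copper genes, any member past the size limit (a log2 ratio of 0.32), the highest and lowest of each group, genes above background on 1 of 2 arrays, and related genes past the size limit; others are examples chosen after their values were seen. The members, lists and rules were chosen with earlier results of these data known. Alternatives were quantile normalization, the deposited table, spike-in centring, normexp (offset 50), other filters on dim probes, outlier spots kept, medians over spots, the brightest probe and a 1.5-fold threshold. The method was checked on simulated data. Python 3.11.15 and pandas 2.3.3 were used, with R 4.3.3 and limma 3.58.1 for normexp only. Quantile normalization was done in Python.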

Additional observations from a re-analysis of the deposited data

How the results depend on the processing

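With 1 array per group no replicate could be left out, and no paired analysis was possible because each group holds 1 array. Spike-in centring gave median ratios to the control of 0.11 (high dose) and 0.15 (low dose), 3 genes higher (Mt1a, Slc30a1 and Slc30a9) and 0 lower at the high dose, and 2 higher (Mt1a and Slc30a1) and 0 lower at the low dose. Of all genes it called 2078 higher and 242 lower at the high dose and 1248 and 180 at the low dose. Normexp, whose offset shrinks ratios by construction, gave 0 higher and 0 lower at the high dose, 0 lower at the low dose and 0 lower between the doses. Of all genes it called 152 higher and 143 lower at the high dose, against 699 and 737, 47 and 70 against 367 and 476 at the low dose, and 135 and 69 against 665 and 553 between the doses, where 66.2% of calls were higher, against 54.6%. Quantile normalization made 53.7% of all low dose calls higher, against 43.5%. Asking for every spot well above background left out Mtf1, giving 0 lower at the high dose. With no filter on dim probes the counts higher and lower were 2 and 5 at each dose against the control, and 4 and 4 between the doses, over 42 genes, and calls over all genes were 2621 and 2753 (high dose), 1918 and 2834 (low dose) and 2777 and 1976 (between the doses). Medians over spots gave 2 lower at the low dose (Mtf1 and Slc39a12). A 1.5-fold threshold gave 0 higher and 0 lower at the high dose, 0 lower at the low dose and 0 lower between the doses, and over all genes 120 and 103, 59 and 97, and 108 and 73 in that order. The cause of these differences was not tested. Of 67 values for single genes, 38 moved by more than 1 spot error under spike-in centring, 7 with the brightest probe, 5 with no filter, 3 with normexp and 2 with medians over spots, and 0 with the deposited table, quantile normalization or outlier spots kept. Dim probes limit Slc31a1, Ireb2, Atp7b, Slc39a2, Slc39a4l and Slc39a12, for which differences at the size limit were not detectable. Mtf1 is also dim, and the spread of its own spots gave an error of 0.17 with the high dose. The size limit lies within 2 such errors.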
